A study of Mus musculus with 4 samples.

Results

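The genes described here are 31 genes of cholesterol synthesis and transport, measured in the hypothalamus of mice by microarray. They were taken by name: a probe set counted where the gene name that the authors gave it equalled 1 of the 31 symbols, and all 31 symbols were found, on 34 of the 35474 probe sets. They are 31 of the 21265 genes that the array names through a probe set of a single gene. Of these genes 29 had 1 probe set, and Fdft1 and Idi1 had several, of which the one with the highest mean log2 signal stands for the gene. The arrays came from male mice aged 12 weeks, with no treatment. The 2 control arrays (A and B) were of wild-type mice, and the 2 ΔFosB arrays (A and B) were of mice labelled ENOI2DeltaFosB in the genotype field and ENO2DeltaFosB in the title of the series. ΔFosB is a truncated splice product of the transcription factor gene Fosb, and ENO2 names neuron-specific enolase, whose promoter is used to drive transgenes in neurons. The labels give neither the line or founder nor the number of animals behind an array, and they do not say that the arrays came from separate animals. The p-values therefore measure only the spread between these arrays, which may be technical.

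Cholesterol does not pass the blood-brain barrier in quantity, so the brain makes its own. Acetyl-CoA is turned through mevalonate into squalene, squalene is closed into lanosterol, and lanosterol is trimmed to cholesterol. The transcription factors SREBP-1 and SREBP-2 switch on the genes of these steps when sterols are low; with ample sterol, the proteins Insig1 and Insig2 hold SREBP and its escort Scap in the endoplasmic reticulum. Most brain cholesterol lies in myelin, which oligodendrocytes build. Astrocytes export cholesterol on apolipoprotein E, and neurons clear the excess by hydroxylating it with Cyp46a1.

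The arrays were at a common level, with summed signals of 68636594 to 68961786. All 31 genes lay above 870, the 95th percentile of 1402 probe sets of odorant and pheromone receptors, which stand here for background, on every array, and the lowest of their signals was 1037. Fosb, the gene of the transgene product, read 1377 and 1220 in wild-type mice, and 1579 and 2189 in ΔFosB mice. It was higher on both ΔFosB arrays (log2 fold change 0.52, SE 0.13, limma adjusted p = 0.0389), and the position of its probe set relative to the truncation was not examined. Hypothalamic peptide genes were unevenly high: Oxt had signals of 853 and 942 in control against 6912 and 7674 in ΔFosB arrays, and Trh and Avp were likewise higher on both ΔFosB arrays. Hcrt and Pmch, of the lateral hypothalamus, were bright on every array, at 2557 or more, and lowest on control array A. The dopamine transporter gene Slc6a3, a marker of midbrain dopamine neurons, had 10241 and 7804 in control against 717 and 770 in ΔFosB arrays. Some defining markers of the labelled tissue were thus near background on the control arrays, where a marker of another region was bright. The part of this difference in the values below was not tested.

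The design sets the transgenic genotype against wild type. Of the 31 genes, 7 were lower on ΔFosB arrays and 0 were higher at an adjusted p of 0.05 (limma's moderated test, n = 2 arrays per group, Benjamini-Hochberg over 14520 genes). The 7 were Insig1, Hsd17b7, Ebp, Npc1, Idi1, Msmo1 and Stard4, and they fell by between 14.7% and 27.2%. They make up 22.6% of the set, beside 6.91% of all genes tested that were called lower; 6.18% of all genes were called higher. With each array centred on its median, the number of all genes called changed from 898 higher and 1004 lower to 490 and 1584, while 7 of the 31 genes were again lower (background 10.9%). At an unadjusted p under 0.05 in the same limma fit, 10 of the genes were lower and 0 higher, beside 13.7% and 16.7% of all genes. An unmoderated test per gene called none of the 31, and none of the 14520 either (2690 at an unadjusted p under 0.05).

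The shift was small and spread over much of the set. The median log2 fold change was -0.10 over the 31 genes and 0.02 over all genes tested, and 23 of the 31 (74.2%) lay below 0, beside 44.2% of all genes. All genes are not matched to the set for signal. With only the upper 40% of signal kept, the median of all genes was -0.004, and that of the set's remaining genes -0.098. Both ΔFosB arrays lay below both control arrays for 17 genes (54.8%; 25.6% of all genes), both lay above for 3 genes (9.68%; 34.7% of all genes), and the groups overlapped for 11. Over all genes, the groups did not overlap for 60.3%. Summed over the set, signals came to 125328 and 125420 on the control arrays, and to 118555 and 118668 on the ΔFosB arrays. Within the set the log2 fold changes ran from -0.46 for Hsd17b7 to 0.09 for Srebf2.

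**Figure D1:**
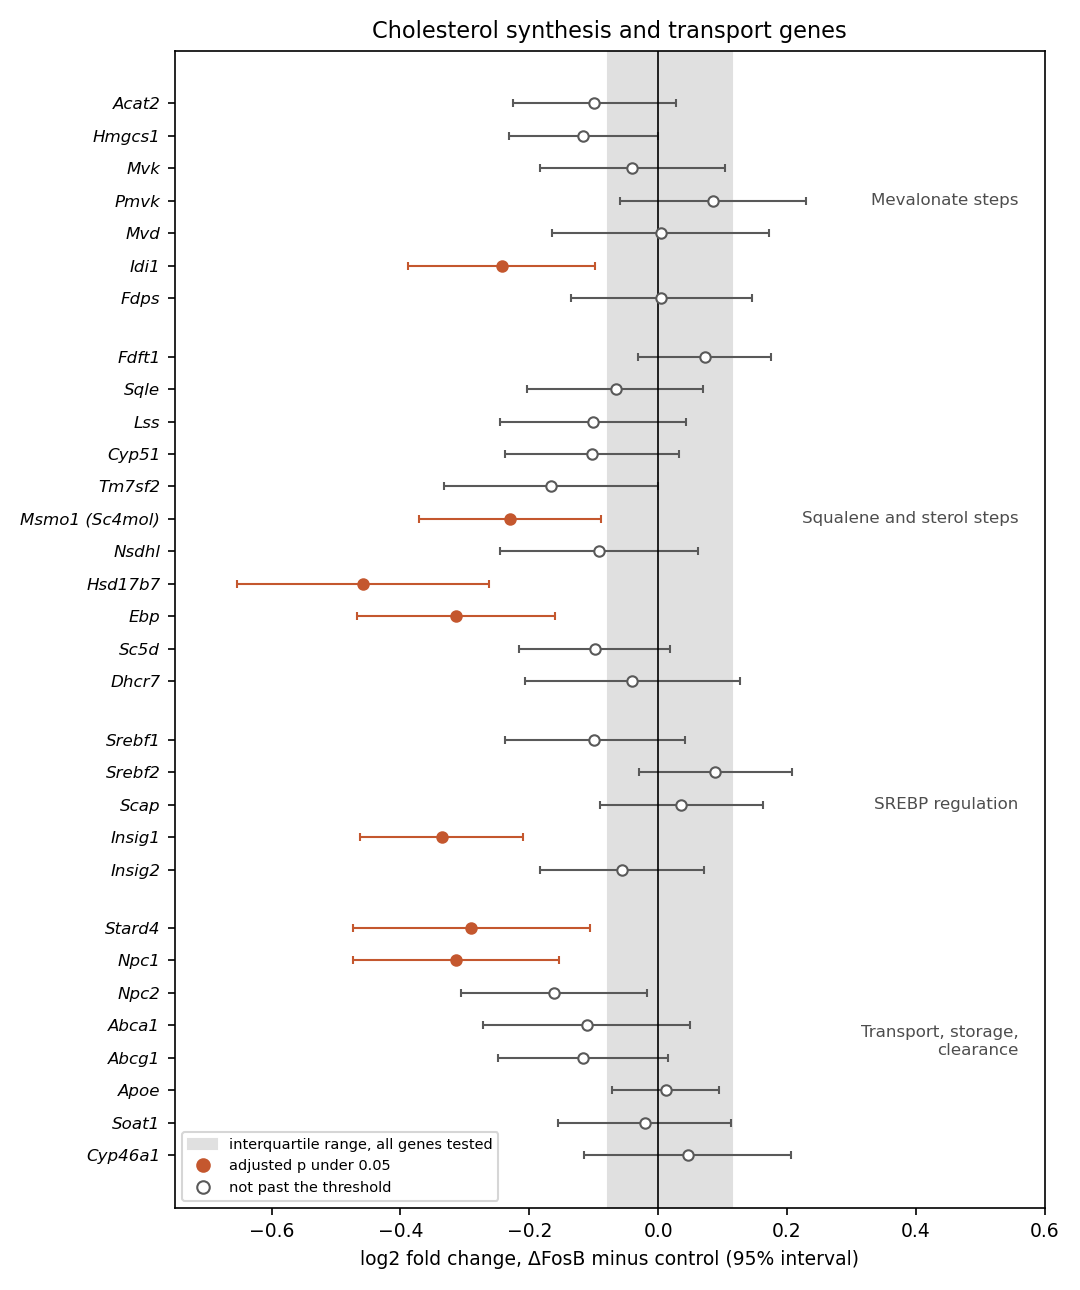
Log2 fold change of each of the 31 genes, ΔFosB minus control, with its 95% interval from limma (n = 2 arrays per group), in the order of the pathway and grouped by role. The grey band is the interquartile range of all genes tested, and the 7 filled points are the genes past an adjusted p of 0.05, all of them below 0.

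Of 7 genes of the mevalonate steps, 1 fell (14.3%, beside 6.91% of all genes called lower) and 6 did not pass. Idi1, the isomerase that makes the second of the pair of activated isoprene units, read 3294 and 3337 in the control group, and 2932 and 2676 in the ΔFosB group. Both ΔFosB arrays were below both control arrays, array B further than array A. It fell by 15.5% (95% interval 6.56% to 23.6%), -0.24 on the log2 scale (SE 0.06; limma adjusted p = 0.0405). A second probe set of Idi1 read 3227 and 3255 in control against 2797 and 2604 in ΔFosB arrays, or -0.26 in log2 fold change (SE 0.06). The call of Idi1 ended with quantile normalization (limma adjusted p = 0.0657) and when control array A (0.153), control array B (0.128) or ΔFosB array B (0.181) was left out.

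The mevalonate genes around Idi1 showed no common direction. Hmgcs1, whose product condenses acetyl-CoA units into HMG-CoA, had signals of 5859.8 and 6078 in control against 5434 and 5579 in ΔFosB arrays, without overlap. Its log2 fold change was -0.12 (SE 0.05, limma adjusted p = 0.164). Acat2, the thiolase of the first step, had 3266 and 3243 against 3020.1 and 3057, also without overlap, and a difference of -0.10 on the log2 scale (SE 0.06; limma adjusted p = 0.264). The genes of the kinases Mvk and Pmvk, of the decarboxylase Mvd and of the farnesyl diphosphate synthase Fdps had log2 fold changes of -0.04, 0.09, 0.00 and 0.01, and only for Pmvk did the groups not overlap (1339 and 1275 against 1398 and 1376). The 95% interval for Fdps ran from -8.98% to 10.6%.

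Of 11 genes of the steps from squalene synthesis to cholesterol, 3 fell (27.3%, beside 6.91% of all genes) and 8 did not pass. The log2 fold change was below 0 for 10 of the 11 (90.9%, beside 44.2% of all genes). The 3 that fell act after lanosterol. Hsd17b7, a ketoreductase that works while methyl groups are stripped from the sterol ring, had signals of 1918 and 1745 in control against 1438 and 1234 in ΔFosB arrays. It had the largest fold change of the set: it fell by 27.2% (95% interval 16.6% to 36.4%), -0.46 on the log2 scale (SE 0.09; limma adjusted p = 0.0109; 0.0878 without control replicate A). Ebp, the sterol isomerase that moves a double bond within the ring, had 2252 and 2061 against 1699 and 1769. It fell by 19.5% (95% interval 10.5% to 27.6%), with a limma adjusted p of 0.0191, and 0.151 without control replicate A.

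Msmo1, listed under its older symbol Sc4mol, encodes the oxidase that starts the removal of those methyl groups. It read 5562 and 5975 in the control group, and 5116 and 4722 in the ΔFosB group, so the groups did not overlap. It fell by 14.7% (95% interval 5.98% to 22.7%), -0.23 on the log2 scale (SE 0.06; limma adjusted p = 0.0437). That call ended with quantile normalization (0.0737), no filter (0.0527) and no intensity trend (0.0656), and when control array A (0.0781), control array B (0.178) or ΔFosB array B (0.175) was left out. Nsdhl, which acts between Msmo1 and Hsd17b7 in the same demethylation, had 3582 and 3410.5 against 3456 and 3112, with overlap, and a difference of -0.09 on the log2 scale (SE 0.07; limma adjusted p = 0.394).

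Tm7sf2, a sterol reductase, had signals of 1254 and 1147 in control against 1102 and 1037 in ΔFosB arrays, a difference of -0.17 on the log2 scale (SE 0.07; limma adjusted p = 0.164). Sqle, the epoxidase that precedes ring closure, Lss, which closes the ring, Cyp51, the lanosterol demethylase, and Sc5d, a desaturase, were each lower on both ΔFosB arrays than on both control arrays. None of these passed, and their log2 fold changes were -0.07, -0.10, -0.10 and -0.10. Dhcr7, the reductase of the last step, had 3670.4 and 3230.3 against 3249 and 3453, and its arrays overlapped (95% interval -13.3% to 9.19%). Fdft1, squalene synthase, was the only gene of these steps above 0, at 0.07 (SE 0.05, limma adjusted p = 0.323), from 9164 and 9308 to 9478 and 9939. Its other probe sets did not share that order: one read 7144 and 6327 in control against 7473 and 5601 in ΔFosB arrays, and the other 7286 and 6073 against 7443 and 5397. Array A was above array B in both groups for these probe sets, which put Fdft1 at -0.02 when its probe sets were averaged.

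**Figure D2:**
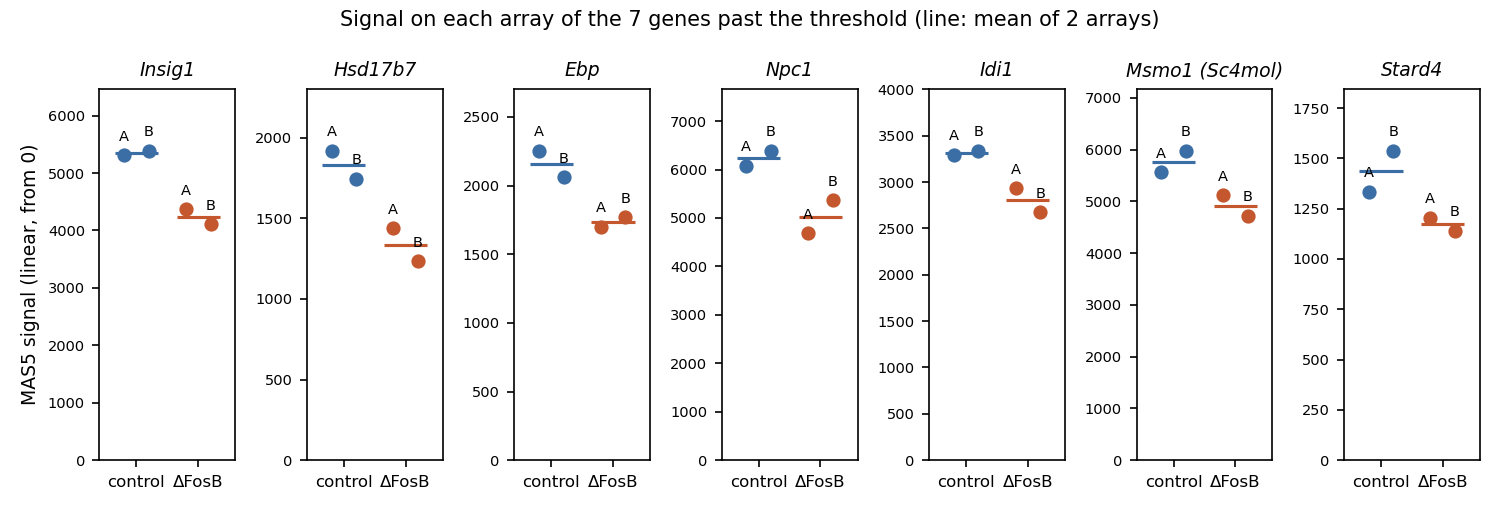
MAS5 signal, on a linear axis from 0, of the 7 genes past the threshold, with a point for each array (A and B) and a line at the mean of the 2 arrays of a group. In each panel both ΔFosB arrays lie below both control arrays: for Insig1 the lower control array stands at 5306 and the higher ΔFosB array at 4368, and for Msmo1, listed as Sc4mol, at 5562 and 5116.

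Of 5 regulators of the pathway, 1 fell (20%, beside 6.91% of all genes). Insig1, which retains the SREBP escort when sterols are ample and is itself switched on by SREBP, read 5306 and 5387 in wild-type mice, and 4368 and 4105 in ΔFosB mice. The control arrays were close together and well above the ΔFosB arrays. It fell by 20.8% (95% interval 13.6% to 27.4%), -0.34 on the log2 scale (SE 0.06; limma adjusted p = 0.00588), and it was the only one of the 31 genes that passed under all 13 moderated alternatives, with limma adjusted p-values up to 0.0347. Its relative Insig2 had 4117 and 4293 against 4119 and 3972, with overlap, and a difference of -0.06 on the log2 scale (SE 0.06; limma adjusted p = 0.532). Whether Insig1 and Insig2 differ in their change was not tested.

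The transcription factor genes themselves did not pass. Srebf2, the main activator of cholesterol genes, had 4498 and 4425 in control against 4685 and 4803 in ΔFosB arrays, a difference of 0.09 on the log2 scale (SE 0.05; limma adjusted p = 0.289). Srebf1, which chiefly drives fatty acid genes, had 1925 and 2024 against 1867 and 1821, a difference of -0.10 on the log2 scale (SE 0.06; limma adjusted p = 0.315). The groups did not overlap for either gene, in opposite directions. Scap had a log2 fold change of 0.04 (95% interval -6.05% to 12.0%).

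Promoters are shown for 3 of the genes that fell, and for Hmgcs1, which did not pass, because SREBP acts on such genes through short sequence motifs near the start. RefSeq windows (GRCm38.p6) of 250 bases before to 50 after a gene's start were matched for 25 of the 31 genes; Fdps, Fdft1, Sqle, Stard4, Npc1 and Abcg1 had none in the table. The motifs TCACNCCAC (core of the sterol regulatory element), TCACGTGA (a palindromic E-box) and CCAAT (the box bound by NF-Y, a partner of SREBP) were searched on both strands. In the stretches shown no match overlapped another. The 250 bases before the start follow, with matches in capitals (ATTGG is CCAAT on the other strand).
Insig1, chr5:28071162-28071411, + strand: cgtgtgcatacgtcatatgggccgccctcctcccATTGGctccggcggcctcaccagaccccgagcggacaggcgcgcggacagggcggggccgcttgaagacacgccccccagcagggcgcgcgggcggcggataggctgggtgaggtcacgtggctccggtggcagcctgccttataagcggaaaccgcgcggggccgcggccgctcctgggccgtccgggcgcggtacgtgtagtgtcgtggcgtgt
Hsd17b7, chr1:169969206-169969455, - strand: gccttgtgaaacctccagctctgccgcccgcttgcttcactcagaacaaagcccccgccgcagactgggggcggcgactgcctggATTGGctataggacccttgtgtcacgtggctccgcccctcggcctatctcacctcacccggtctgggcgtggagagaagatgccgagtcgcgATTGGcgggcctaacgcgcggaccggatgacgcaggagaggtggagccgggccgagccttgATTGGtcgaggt
Msmo1, chr8:64733579-64733828, - strand: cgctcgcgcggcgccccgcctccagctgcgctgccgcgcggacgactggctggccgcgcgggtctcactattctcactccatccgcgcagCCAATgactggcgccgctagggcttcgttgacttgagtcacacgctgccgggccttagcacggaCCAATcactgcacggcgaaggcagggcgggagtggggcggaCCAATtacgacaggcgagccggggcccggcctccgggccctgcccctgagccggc
Hmgcs1, chr13:119690101-119690350, + strand: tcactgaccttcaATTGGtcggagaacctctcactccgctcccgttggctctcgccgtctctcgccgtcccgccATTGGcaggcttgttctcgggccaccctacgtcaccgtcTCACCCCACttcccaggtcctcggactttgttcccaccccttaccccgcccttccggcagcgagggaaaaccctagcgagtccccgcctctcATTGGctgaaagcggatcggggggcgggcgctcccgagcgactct
In these stretches Insig1 held 1 CCAAT box, Hsd17b7 and Msmo1 held 3 each, and Hmgcs1 held 3 with 1 sterol regulatory element core, which starts 137 bases before the gene. Over all windows, CCAAT occurred in those of 21 of the 25 matched genes, beside 41.1% of 27025 genes. It was present for 5 of 5 matched genes that fell and for 16 of 20 that did not pass. The sterol regulatory element core was found for Hmgcs1 alone (1.44% of all genes), and the palindromic E-box for 0 of 25 (1.12% of all genes). A match describes these letters only.

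Of 8 genes of transport, storage and clearance, 2 fell (25%, beside 6.91% of all genes). Npc1, the membrane protein that lets cholesterol leave the lysosome, read 6071 and 6385 in wild-type mice, and 4680.4 and 5363 in ΔFosB mice. It fell by 19.5% (95% interval 10.1% to 28.0%), -0.31 on the log2 scale (SE 0.07; limma adjusted p = 0.0227). The call ended when control array A (0.0687), control array B (0.0943) or ΔFosB array A (0.07) was left out. Npc2, its soluble partner in the lysosome, had 3825 and 3647 against 3204 and 3479, without overlap, and a difference of -0.16 on the log2 scale (SE 0.06; limma adjusted p = 0.126).

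Stard4, which carries sterol between membranes in the cytosol, had signals of 1334 and 1537 in control against 1204 and 1140.3 in ΔFosB arrays. It fell by 18.2% (95% interval 7.09% to 28.0%), a log2 fold change of -0.29 (SE 0.08), the call nearest to the threshold (limma adjusted p = 0.0485). It ended with no filter (0.0667) and no intensity trend (0.0512), and without control replicate B (0.224, log2 fold change -0.19) or ΔFosB replicate B (0.117).

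The exporters and the clearance gene did not pass. Apoe, the carrier of astrocyte cholesterol, had 19607 and 19625 in control against 19301 and 20273 in ΔFosB arrays, and its 95% interval ran from -4.82% to 6.84%. The efflux pump gene Abcg1 had 3215 and 3234 against 2895 and 3056, without overlap, and a difference of -0.12 on the log2 scale (SE 0.06; limma adjusted p = 0.215). Abca1, the other pump, had a log2 fold change of -0.11 (SE 0.07) with overlapping arrays. Soat1, which esterifies cholesterol for storage, lay between -10.2% and 8.17%, and Cyp46a1, the hydroxylase of neurons, between -7.63% and 15.3% (95% intervals). The arrays of both groups overlapped for these 2 genes, whose log2 fold changes were -0.02 and 0.05.

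Other genes of sterol metabolism were taken from 3 further lists. Of 13 tested genes of synthesis and conversion, 2 fell (15.4%, beside 6.91% of all genes), 0 rose and 11 did not pass. The 2 that fell hydroxylate sterols or bile acid precursors rather than make cholesterol. Cyp27a1 had signals of 1548 and 1498 in control against 868 and 995 in ΔFosB arrays, a difference of -0.71 on the log2 scale (SE 0.08; limma adjusted p = 0.000894). Cyp7b1 fell by 0.33 on the log2 scale (SE 0.07, limma adjusted p = 0.0147; 0.0531 when control array A was left out and 0.0779 when control array B was).

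Of 12 tested genes of sterol regulation, 1 fell (8.33%, close to the 6.91% of all genes) and 0 rose. It was Nr1h2, the sterol-sensing receptor LXR-beta, which fell by 0.28 on the log2 scale (SE 0.06, limma adjusted p = 0.025; 0.18 without control replicate A and 0.0676 without ΔFosB replicate B). Of 28 tested genes of sterol transport, 7 fell (25%, beside 6.91% of all genes) and 0 rose. Osbpl1a, an oxysterol-binding-protein relative, had signals of 4034 and 3868 in control against 2685 and 2480.4 in ΔFosB arrays, a difference of -0.61 on the log2 scale (SE 0.06; limma adjusted p = 0.000613). Stard5, of the same lipid transfer domain family as Stard4, fell by 0.49 (SE 0.06, limma adjusted p = 0.00154).

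Fatty acid and sphingolipid genes were examined beside the sterol genes. Of 25 tested genes of fatty acid synthesis, 5 fell (20%, beside 6.91% of all genes) and 0 rose. Insig1, which also stands in this list, was among those that fell, and the median log2 fold change was -0.10. The elongase genes Elovl7 and Elovl1 fell by 0.78 (SE 0.07, limma adjusted p = 0.000445) and 0.58 (SE 0.06, limma adjusted p = 0.000753). Of 17 galactolipid and sphingolipid genes, 4 fell (23.5%) and 1 rose (5.88%, beside 6.18% of all genes called higher). Ugt8a and Fa2h, which make the galactolipids of myelin and are also in the myelin list, fell by 0.74 (SE 0.08) and 0.72 (SE 0.07). The ceramide synthase gene Cers6 rose by 0.32 (SE 0.06, limma adjusted p = 0.01; 0.0551 without control replicate B).

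Genes of myelin and oligodendrocytes moved with the group on the same arrays, and by more than the cholesterol genes in the median. Of 24 tested, 23 fell (95.8%, beside 6.91% of all genes) and 0 rose, with a median log2 fold change of -0.55. Their signals summed to 175650 and 181083 on the control arrays, and to 121173 and 129134 on the ΔFosB arrays. All 24 passed the filter on dim probe sets. The myelin proteins Mog and Mag fell by 0.83 (SE 0.05) and 0.71 (SE 0.05). In bulk tissue, fewer cells of a type and less RNA per cell cannot be told apart. What part the myelin genes' difference has in that of the cholesterol genes was not tested.

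Other cell types also differed in part. Of 17 astrocyte genes, 5 fell (29.4%) and 1 rose (5.88%), beside 6.91% and 6.18% of all genes. Their median was -0.14, with summed signals of 141811 and 145825 in control against 131774 and 136087 in ΔFosB arrays. Aqp4 and S100b fell by 0.54 and 0.36, and Slc1a3 rose by 0.37. Of 14 vessel genes, 7 fell (50%) and 0 rose, with sums of 31087 and 30966 against 26711 and 26843. Rgs5 and Tek fell by 0.42 and 0.39. Tek did not pass without control replicate B, at a log2 fold change of -0.33. Of 22 neuronal genes, 3 fell (13.6%) and 1 rose (4.55%), with sums of 228995 and 222612 against 223379 and 214565. Nefm and Nefh fell by 0.63 and 0.65, and Syn2 rose by 0.27 (limma adjusted p = 0.0859 without control replicate A). Eno2, which is in this list, had a difference of -0.05 on the log2 scale (SE 0.04; limma adjusted p = 0.418). Of 14 microglial genes, 1 fell (7.14%, close to the 6.91% of all genes) and 0 rose, with sums of 28414 and 28552 against 26410 and 26901. What part these differences have in that of the cholesterol genes was not tested.

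**Figure D3:**
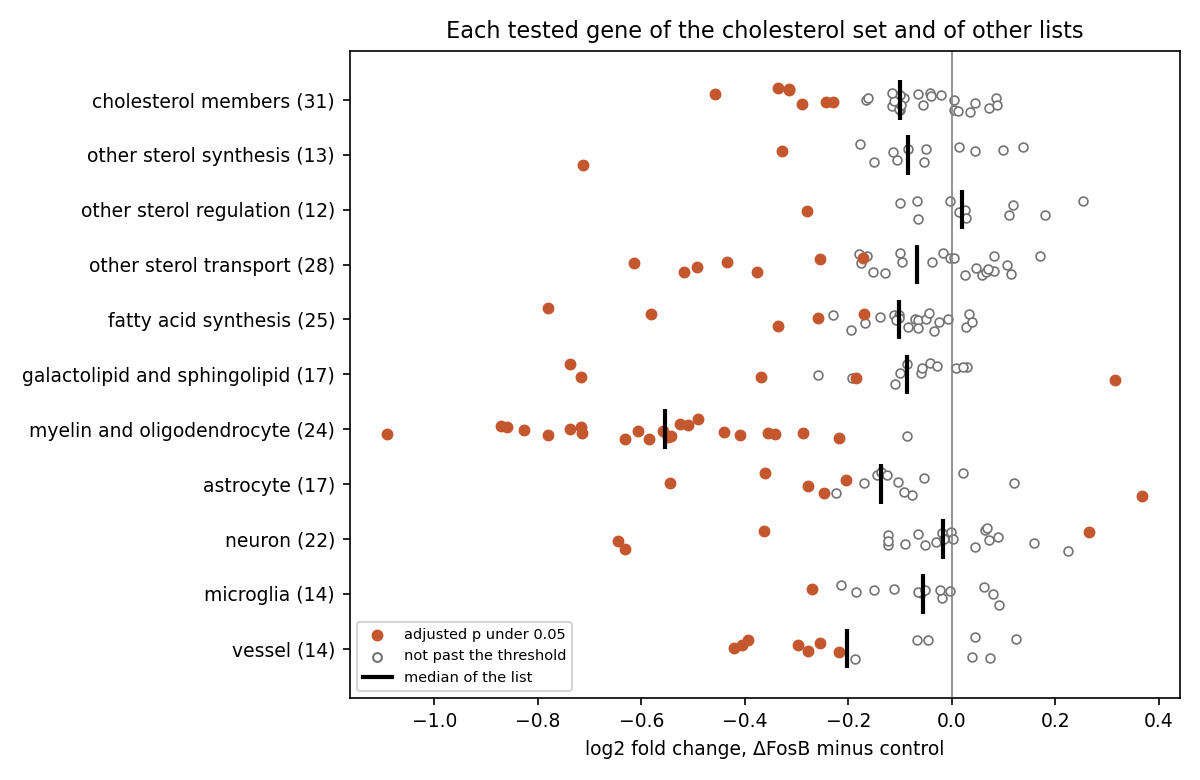
Log2 fold change, ΔFosB minus control, of each tested gene of the cholesterol set and of 10 other lists, with the number of genes in brackets, filled points for an adjusted p under 0.05 and a black line at each median. The cholesterol genes lie between -0.46 and 0.09 around a median of -0.10, and the myelin genes between -1.09 and -0.09 around a median of -0.55.

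The calls of the 7 genes differed in how far they rested on single arrays. Without control replicate A, 2 of the 31 genes were called lower (Insig1 and Stard4), beside 3.09% of all genes. Without control replicate B, 3 were (Insig1, Hsd17b7 and Ebp), beside 4.55% of all genes. Without ΔFosB replicate A the number was 6 (6.53% of all genes), and without ΔFosB replicate B it was 4 (Insig1, Hsd17b7, Ebp and Npc1; 5.01% of all genes). In none of these fits was one of the 31 genes called higher.

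**Figure D4:**
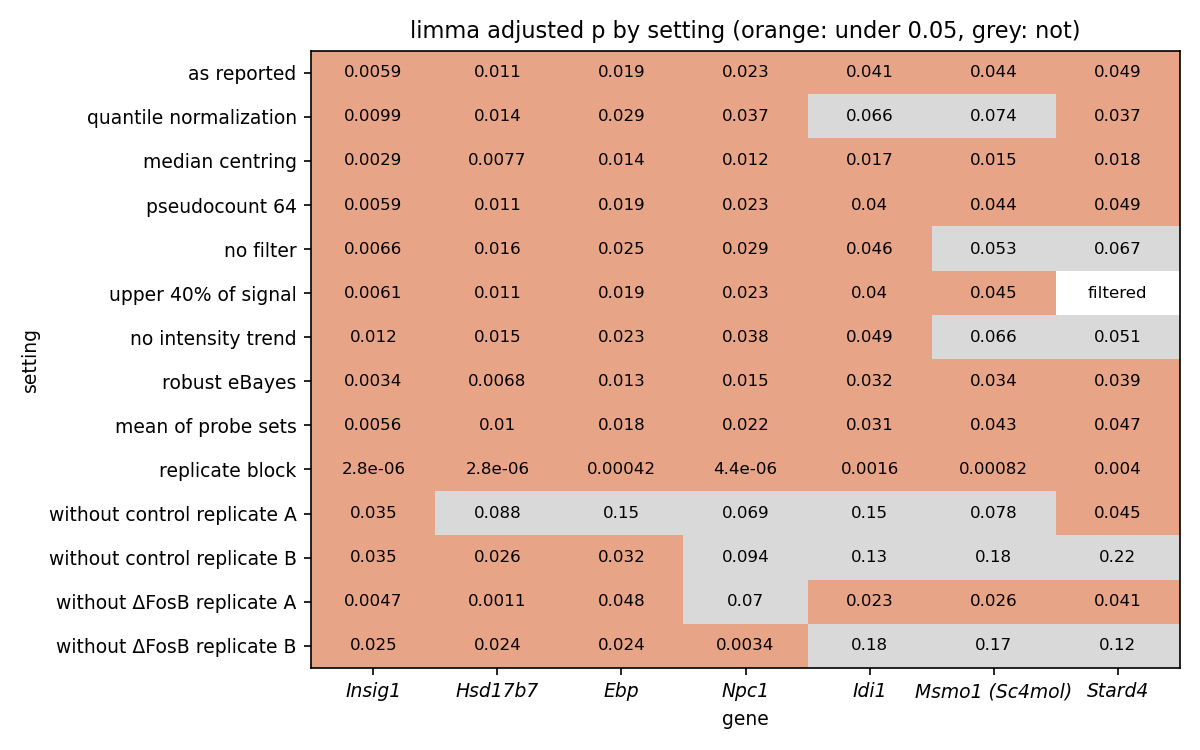
Limma adjusted p of the 7 genes under each moderated setting, orange where it is under 0.05 and grey where it is not. Insig1 is under the threshold in every row, while Hsd17b7, Ebp, Npc1, Idi1, Msmo1 and Stard4 each miss it somewhere. Hsd17b7 and Ebp miss it only without control replicate A. Stard4 is removed by the filter on the upper 40% of signal.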

How the data were processed

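RNA prepared with Trizol was made into biotinylated cRNA by the standard Affymetrix method, per the labels' protocols. The authors deposited 1 linear intensity per probe set and array; MAS5 is the tool named per the submitters' processing notes, without a version. How the arrays were scaled, and with which annotation and build, is not given in the sources used here. The 4 ratio columns of the sheet were not used, and the sheet equalled the series' value table (largest difference 0), so that alternative was not run.

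Log2 values were taken with no pseudocount or further normalization. A probe set was kept if its mean log2 signal was among the highest 60% (a signal of 717). Of 25175 named probe sets, 23015 had 1 gene identifier. For 21637 of these the identifier was found in RefSeq (GRCm38.p6), which gave the symbol. The probe set of highest mean log2 signal stood for its gene. ΔFosB and control arrays were compared with limma (lmFit, eBayes with an intensity trend) over 14520 genes, without a block, at an adjusted p of 0.05; standard errors are the moderated ones. On simulated data of 14520 genes with 200 changed, 78% of 1.25-fold and 100% of 1.5-fold changes were recovered, with 15 false calls. The simulated noise was normal and independent, with variances taken from the main fit. It held no array-wide or dissection differences, so these shares describe that setting only. With 2 arrays per group, the number of arrays limits the precision (median standard error 0.066).

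The members and lists were chosen with earlier results of these data known. The text names all members, Fosb and Eno2, and from each further list up to 2 genes with the lowest and 2 with the highest statistic past the threshold; Oxt, Trh, Avp, Hcrt, Pmch and Slc6a3 were added after their values were seen. Not every gene that the rule takes is reported here. Of those lists, Mbtps2, Stard3, Acss2, Acsl3, Tecr and Ly6c1 were not matched, and Ch25h, Nr1h3 and Aif1 lay below the filter. The fits used limma 3.58.1 in R 4.3.3; the tables used pandas 2.3.3 with numpy 2.4.6, and the figures matplotlib 3.10.9, in Python 3.11.15.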

Additional observations from a re-analysis of the deposited data

How the results depend on the processing

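Alternatives were quantile normalization, median centring, a pseudocount of 64, no filter, the upper 40% of signal, no trend, a replicate block, averaged probe sets, robust moderation, no moderation and each array omitted in turn. The number of the 31 genes called lower was 5 to 8 under the alternatives that kept all arrays and moderation, 0 in the unmoderated test, and 2 to 6 without 1 array; the number called higher was 0 under each. With quantile normalization the median of the 31 genes was -0.071, beside 0.015 over all genes. With median centring it was -0.159, beside -0.041 over all genes. Over all genes, median centring gave 490 higher and 1584 lower, the upper 40% of signal 520 higher, the unmoderated test 0 and 0, the replicate block 1936 and 1888, and leaving out 1 array 253 to 749 higher and 449 to 948 lower. Whether the letters A and B pair arrays across the groups is not given in the labels. Deviations of same-letter arrays correlated at 0.24 across genes, and with 2 pairs this does not establish a pairing. The replicate block called 8 of the 31 genes lower, Npc2 being added (limma adjusted p = 0.0293). It also called 13% of all genes lower, beside 6.91% without a block. Of 431 fold changes recomputed, 18 changed sign, none of them of a called gene. Many of the 431 could not change. The filter, trend, robust, unmoderated and block settings leave each fold change as it was, and averaging probe sets can alter only Fdft1 and Idi1. With median centring Mvd was at -0.057, Fdps -0.056, Scap -0.024, Apoe -0.049 and Cyp46a1 -0.015; with quantile normalization Mvd was at -0.014 and Soat1 0.010; with averaged probe sets Fdft1 was at -0.018. Without 1 array, Mvd ran from -0.080 to 0.087, Fdps from -0.058 to 0.067, Dhcr7 from -0.132 to 0.052, Apoe from -0.023 to 0.047, Soat1 from -0.057 to 0.015 and Cyp46a1 from -0.036 to 0.127. In a further limma fit, each probe set was a feature of its own. There Msmo1 (limma adjusted p = 0.0532) and Stard4 (0.0576) did not pass, and the other called genes did. The cause of these differences was not tested.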
